A study of Mus musculus with 4 samples.

Results

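The genes described here are 54 mouse genes that act in mitosis, at the kinetochore and in cytokinesis. They form a fixed list of cyclins, spindle motors, kinetochore and condensin subunits and cytokinesis factors, matched to the deposited count tables through Ensembl identifiers and GENCODE mouse symbols. All 54 were found among the 22524 rows of each table, and all 54 were among the 14265 genes with enough counts to test.

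RNA sequencing was done on cells sorted for the red reporter tdTomato out of mouse dermal hyperplasia at a pre-tumorigenic stage, with 2 libraries in each of 2 groups. All mice carried oncogenic NrasQ61K under the tyrosinase promoter (Tyr::NrasQ61K), a tamoxifen-inducible Cre recombinase under the same promoter (Tyr::CreERT2) and a Cre-dependent reporter (R26R-LSL-tdTomato), and all received tamoxifen. The group named Ezh2Y646N also carried the Cre-dependent allele ColA1-LSL-Ezh2Y646N, which encodes a mutant form of Ezh2, the catalytic subunit of Polycomb repressive complex 2, whereas the group named NrasQ61K did not. The labels give no age. By design Cre acts where the tyrosinase promoter is active, so the reporter is meant to mark cells with a history of that promoter. Markers of other skin cells were also present, as described below, and the purity of the sort was not tested. The labels number the libraries 1 and 2 and do not say that they came from separate animals, so p-values measure the spread between libraries, which may be technical.

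A cell that divides first replicates its DNA in S phase and then, at the G2/M boundary, activates the kinase Cdk1 through its partner cyclins A and B. Condensin and topoisomerase II compact and untangle the chromosomes, kinetochores tie them to spindle microtubules, and a checkpoint holds back the anaphase-promoting complex until each chromosome is attached. Most of these genes are transcribed mainly from late S phase to mitosis, under B-Myb, FoxM1 and the DREAM complex, so their RNA in a mixture of cells is widely used as a measure of how many cells are cycling. In bulk RNA, fewer cells of a type and less RNA per cell cannot be told apart.

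The DREAM and MuvB complexes are known to bind a short promoter element with the core TTTGAA, and the factor NF-Y to bind CCAAT. RefSeq promoters on GRCm38.p6, from 250 bases before to 50 bases after the start of transcription, were at hand for 45 of the 54 genes. Both strands were searched for CCAAT, which reads ATTGG from the other strand. They were also searched for TTTGAA, which reads TTCAAA from the other strand, and a base could belong to matches of both motifs. CCAAT was present for 32 of the 45 genes (71.1%), against 42.7% of the 10963 tested genes with an entry and 37.4% of all 32851 promoters. TTTGAA was also present for 32 of 45 (71.1%), against 14.4% of the tested genes and 17.9% of all promoters, and both motifs for 27 (60.0%), against 6.04% and 6.95%. Of 40 S phase genes with an entry, 25 (62.5%) held CCAAT and 5 (12.5%) held TTTGAA. Of 78 other mitosis genes with an entry, 51 (65.4%) held CCAAT, 31 (39.7%) TTTGAA and 23 (29.5%) both. Upstream of the start alone, within 250 bases, CCAAT was found for 32 of the 45 genes, TTTGAA for 17 (37.8%) and both for 15 (33.3%), against 40.2%, 12.9% and 4.98% of the tested genes and 33.8%, 16.0% and 5.55% of all promoters. Shares of genes count a gene once if any of its entries matched, whereas those of promoters count each entry. Such a match describes the letters in the window and is not a measured binding site.

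The upstream stretches of 4 genes with both motifs are shown because they share these elements and carry the largest mean counts among such genes. That of Ttk was added because Ttk was highest in Ezh2Y646N replicate 1, whereas those 4 genes were highest in NrasQ61K replicate 1. Espl1 and Cenpk were also highest in Ezh2Y646N replicate 1, and their stretches are not shown. The capitals mark the matches to both motifs on either strand. Each runs 5′ to 3′ on the strand of its gene and ends at the base before the RefSeq start, except that of Ncapd2, which is limited to the 99 bases that lie outside the exons of Ncapd2 and of its divergent neighbour Mrpl51. None overlaps an exon annotated in GENCODE M21. The stretches are chr7:135716380-135716629 on the minus strand for Mki67, chr11:99024190-99024439 on the minus strand for Top2a, chr6:125191702-125191800 on the minus strand for Ncapd2, chr4:52438971-52439220 on the plus strand for Smc2 and chr9:83834439-83834688 on the plus strand for Ttk.
Mki67: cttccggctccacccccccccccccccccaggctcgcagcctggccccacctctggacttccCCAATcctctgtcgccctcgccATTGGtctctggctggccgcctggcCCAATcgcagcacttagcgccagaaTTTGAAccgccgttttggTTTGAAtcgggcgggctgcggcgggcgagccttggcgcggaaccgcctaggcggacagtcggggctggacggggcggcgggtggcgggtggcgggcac
Top2a: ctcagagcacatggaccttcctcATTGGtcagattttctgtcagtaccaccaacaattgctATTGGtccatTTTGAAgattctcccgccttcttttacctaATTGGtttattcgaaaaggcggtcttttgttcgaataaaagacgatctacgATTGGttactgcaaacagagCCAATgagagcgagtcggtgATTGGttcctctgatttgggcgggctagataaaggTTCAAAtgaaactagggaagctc
Ncapd2: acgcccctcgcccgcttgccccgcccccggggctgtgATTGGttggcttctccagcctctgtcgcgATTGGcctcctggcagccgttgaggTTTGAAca
Smc2: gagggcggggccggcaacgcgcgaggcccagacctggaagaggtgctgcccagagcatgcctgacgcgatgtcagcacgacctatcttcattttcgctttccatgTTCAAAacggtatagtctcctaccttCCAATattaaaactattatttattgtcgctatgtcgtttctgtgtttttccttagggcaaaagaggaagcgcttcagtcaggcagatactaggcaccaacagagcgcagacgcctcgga
Ttk: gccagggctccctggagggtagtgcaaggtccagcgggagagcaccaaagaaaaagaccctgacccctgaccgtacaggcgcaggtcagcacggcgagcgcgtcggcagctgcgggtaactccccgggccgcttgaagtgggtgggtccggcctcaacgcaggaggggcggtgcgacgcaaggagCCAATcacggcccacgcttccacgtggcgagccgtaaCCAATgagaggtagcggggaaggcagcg
The Mki67 stretch held 3 CCAAT matches and 2 TTTGAA matches, and that of Top2a held 6 and 2. The Ttk stretch held 2 CCAAT matches and no TTTGAA, whose only match at that gene began at base 8 after the start. Upstream TTTGAA was found for only 17 of the 45 genes, so its absence was not particular to Ttk. A link between the motifs and the levels was not tested.

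Total counts ranged from 14808801 to 20600297 per library, and levels are given as CPM (counts relative to library size), scaled by edgeR's TMM factors. Where 4 values follow one another, their order is Ezh2Y646N replicate 1, Ezh2Y646N replicate 2, NrasQ61K replicate 1 and NrasQ61K replicate 2. Replicate counts differed well beyond sampling noise (chi-square over its degrees of freedom, 41.8 in Ezh2Y646N and 91.9 in NrasQ61K). None of 12 melanocyte markers was at 0, and their summed level was 3976, 4028, 2715 and 3512 CPM. No measured keratinocyte, hair, fibroblast or endothelial marker was at 0 either, so counts above 0 do not identify the sorted cells. Dct, a melanin synthesis enzyme, stood at 2203, 2757, 1486 and 2002 CPM. Keratinocyte markers summed to more than the melanocyte markers in every library. The sums were 16090.5, 24547, 12217 and 26851 CPM for 10 basal markers. They were 57434, 41741, 4306 and 11071 CPM for 11 measured suprabasal markers. Ezh2 itself was at 135, 91.6, 171 and 75.1 CPM, a log2 fold change of -0.11 (SE 0.39), and the counts do not separate the mutant allele from the endogenous gene.

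Taken as a whole, the mitosis genes stood highest in 1 of the NrasQ61K libraries and lowest in the other. Their counts made up 0.427% of all counts in Ezh2Y646N replicate 1 (95% Wilson interval 0.424 to 0.430%), 0.322% in Ezh2Y646N replicate 2 (0.319 to 0.325%), 0.715% in NrasQ61K replicate 1 (0.711 to 0.720%) and 0.304% in NrasQ61K replicate 2 (0.302 to 0.306%), where the intervals cover counting error only. Both Ezh2Y646N shares lay between the NrasQ61K shares, so the groups overlapped. The means were 0.374% ± 0.0740 (SD, n = 2) for Ezh2Y646N and 0.510% ± 0.291 (SD, n = 2) for NrasQ61K, and a two-sided exact permutation test gave p = 1, where 0.333 is the smallest p that 2 against 2 libraries allow. The median gene of the 54 stood at 40.9, 31.9, 58.1 and 28.5 CPM.

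**Figure D1:**
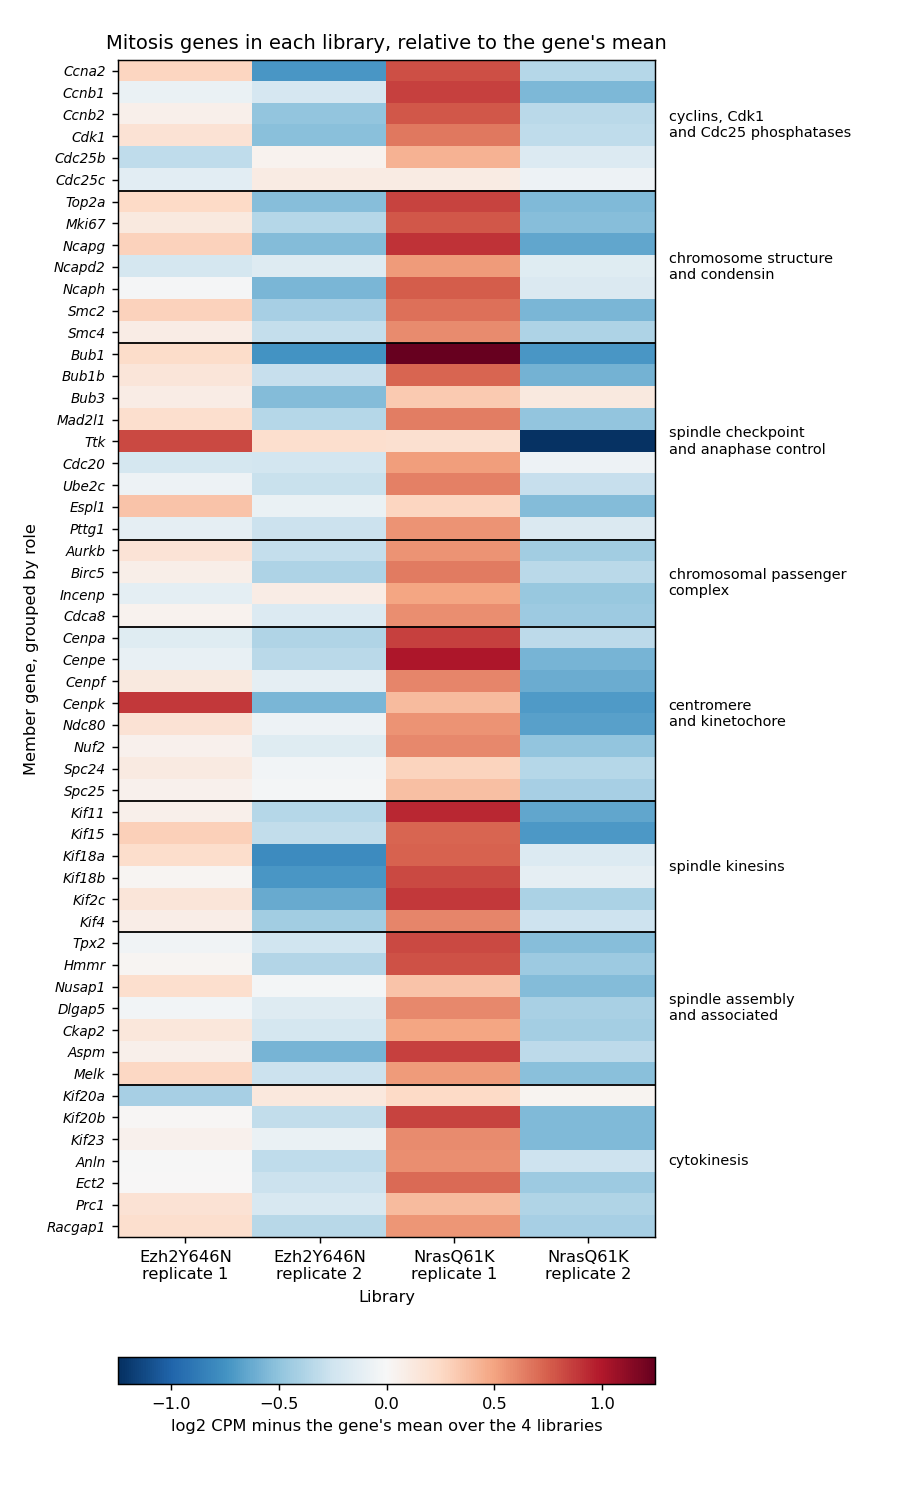
Heat map of the 54 mitosis genes (rows, grouped by role) in the 4 libraries (columns), coloured by log2 CPM minus the gene's own mean over the libraries. The column of NrasQ61K replicate 1 is the highest for 50 of the 54 genes and that of NrasQ61K replicate 2 the lowest for 34.

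No gene of the 54 passed the test of a difference between the groups. With edgeR's quasi-likelihood test and Benjamini-Hochberg adjustment over all 14265 genes, 0 of 54 passed the adjusted threshold of 0.05, against 253 of all genes (1.77%; 1.1% higher and 0.673% lower in Ezh2Y646N). None of the 54 had an unadjusted p under 0.05, against 14.3% of all genes. The smallest unadjusted p was 0.084, for Ttk, and adjusted p-values ran from 0.445 to 0.999. DESeq2 and limma voom also called none (all genes, 6.45% and 1.5%), with 1 gene each at an unadjusted p under 0.05 (all genes, 14.4% and 14%), which was Ttk in both. The log2 fold changes, Ezh2Y646N relative to NrasQ61K, were mostly negative: 48 of the 54 were below 0 (all genes, 54%) and 6 above, with a median of -0.36 (all genes, -0.04) and a range from -0.75 for Bub1 to 0.90 for Ttk.

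These null results had limited precision. The standard errors of the log2 fold changes ran from 0.27 to 0.61, with a median of 0.38. The 95% interval included 0 for all 54 genes, a halving in Ezh2Y646N (a log2 change of -1) for 38 genes, and a doubling for Ttk and Cenpk alone. For those 38 genes neither no difference nor a halving lay outside the interval.

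**Figure D2:**
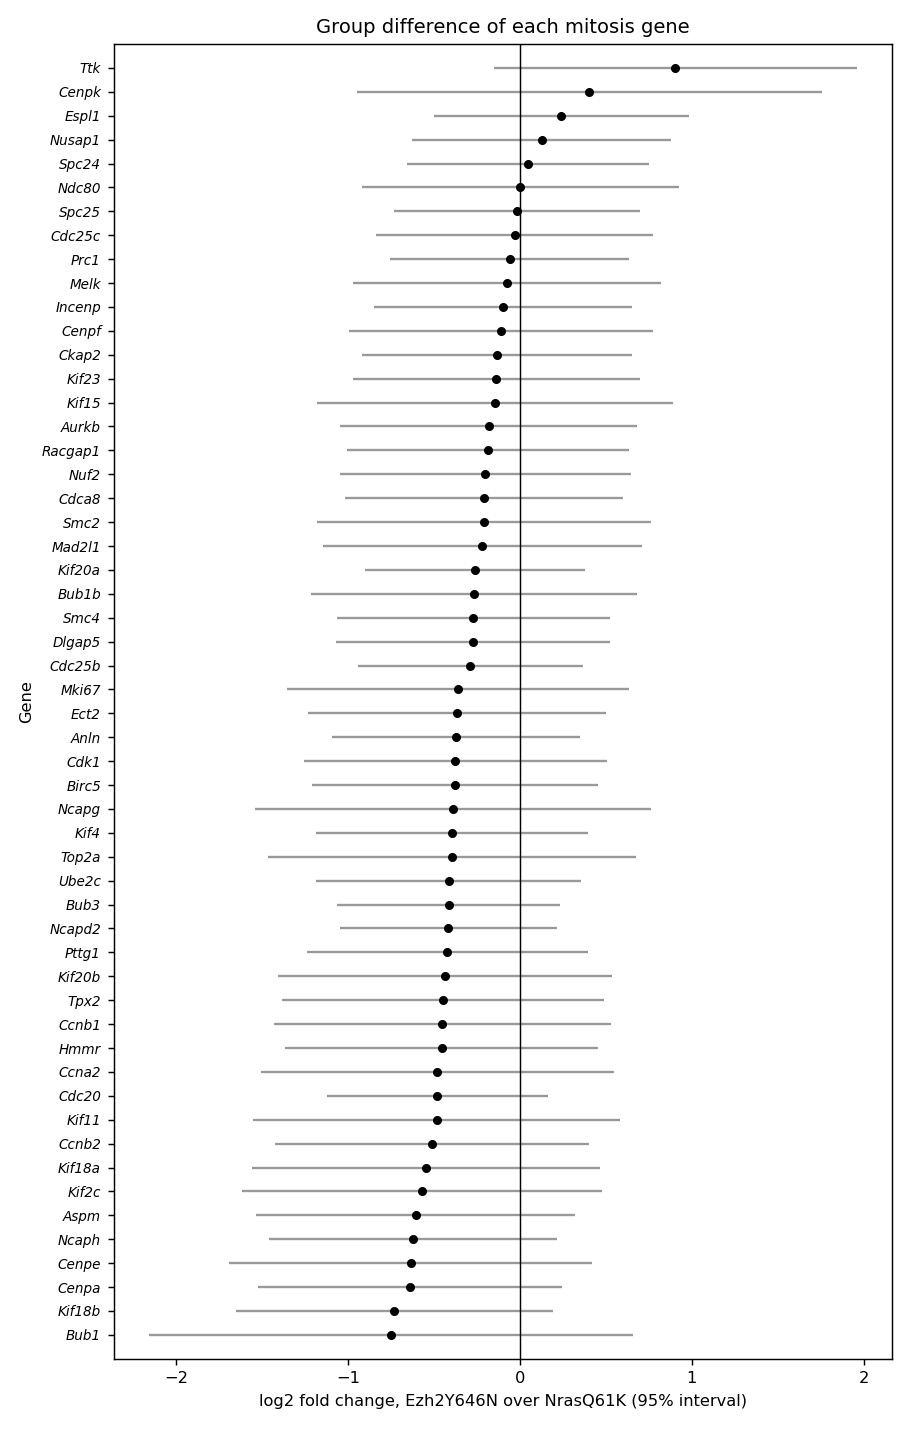
Log2 fold change of each of the 54 genes, Ezh2Y646N over NrasQ61K (points), with its 95% interval (lines), ordered by size. Every interval crosses 0, from Bub1 at -0.75 to Ttk at 0.90.

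For nearly all of the genes the NrasQ61K libraries differed more from each other than the groups did. The level in NrasQ61K replicate 1 was above that in NrasQ61K replicate 2 for 54 of 54 genes (all genes, 49.6%), by a median of 2.06-fold (log2 1.05; all genes, log2 -0.01), and by at least 2-fold for 29 of the 54 (53.7%; all genes, 4.97%). The ratio ran from 1.12 for Cdc25c to 3.93 for Bub1. Between the Ezh2Y646N libraries, replicate 1 was above replicate 2 for 49 genes (all genes, 50.4%), by a median of 1.31-fold. The exceptions were Cdc25b, Cdc25c, Ncapd2, Incenp and Kif20a. For 52 of 54 genes (all genes, 54.6%) the log2 difference between the NrasQ61K libraries was larger than that between the groups, Bub3 and Kif20a being the exceptions. These ratios compare single libraries and not conditions.

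**Figure D3:**
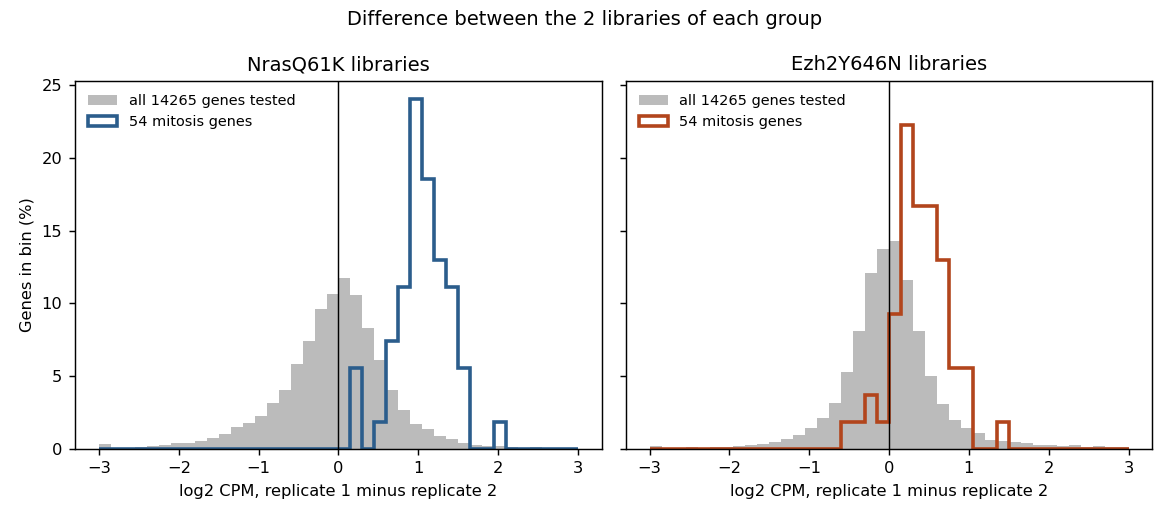
Histograms of the log2 CPM difference, replicate 1 minus replicate 2, in NrasQ61K (left) and Ezh2Y646N (right), as the percentage of genes per bin for the 54 mitosis genes (outline) and all 14265 genes tested (grey). All 54 genes lie right of 0 in NrasQ61K and 49 in Ezh2Y646N, while all genes tested are centred near 0 in both.

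The order of the libraries was shared as well. From high to low it was NrasQ61K replicate 1, Ezh2Y646N replicate 1, Ezh2Y646N replicate 2 and NrasQ61K replicate 2 for 30 of the 54 genes (all genes, 4.88%), and the same with the last pair exchanged for 14 more (all genes, 6.3%). NrasQ61K replicate 1 held the highest level of 50 genes (92.6%; all genes, 32.7%). The exceptions were Ttk, Espl1 and Cenpk, highest in Ezh2Y646N replicate 1, and Cdc25c, highest in Ezh2Y646N replicate 2. NrasQ61K replicate 2 held the lowest level of 34 genes (all genes, 19.6%), Ezh2Y646N replicate 2 that of 16 (all genes, 26%) and Ezh2Y646N replicate 1 that of Cdc25b, Cdc25c, Ncapd2 and Kif20a. The 54 genes lie on 18 chromosomes, with 9 on chromosome 2 and 6 each on chromosomes 9 and 11. The groups did not overlap for 4 of the 54 genes (7.41%), namely Ttk, higher in Ezh2Y646N, and Ncapd2, Bub3 and Cdc20, lower. Among all genes 44.2% did not overlap (21.1% higher and 23.1% lower).

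Expressed per kilobase of exon, which allows genes to be compared, the highest mean level was that of Mki67 at 91.0 CPM per kb, followed by Smc4 at 52.0, Top2a at 42.8, Incenp at 25.6 and Ncapd2 at 23.7. The median of the 54 was 8.50 CPM per kb. The lowest were Cenpk at 1.37, Cdc25c at 1.60 and Kif18a at 1.77 CPM per kb. Every gene had at least 62 counts in each library, the lowest being Cenpk in Ezh2Y646N replicate 2. Exons of 15 genes overlapped those of another gene, and for 7 of them over 10% of the exonic bases lay opposite one: Kif20a (29.3%, Cdc23), Ube2c (22.8%, Tnnc2), Kif4 (15.1%, Pdzd11), Ncapg (13.4%, Lcorl), Cdc25c (12.7%, Gm3550), Ccna2 (12.5%, Exosc9) and Prc1 (11.1%, Rccd1). The strand setting of the counting is not given in the sources used here, so their values are less certain.

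The cyclins, Cdk1 and the Cdc25 phosphatases, which start mitosis, summed to 218, 165, 340.3 and 168 CPM over 6 genes. All 6 had a fold change below 0, with a median of -0.41. Cdk1, the mitotic kinase (ENSMUSG00000019942, chr10:69335146-69352938), stood at 40.4, 24.7, 56.1 and 28.6 CPM (log2 fold change -0.38, SE 0.38; adjusted p = 0.767 by edgeR's quasi-likelihood test). Its partner Ccnb1, cyclin B1, was at 31.7, 29.1, 60.5 and 22.7 CPM, with both Ezh2Y646N values close together and inside the NrasQ61K range (log2 fold change -0.45, SE 0.42). Ccnb2, cyclin B2, was at 31.3, 21.3, 51.5 and 23.7 CPM (log2 fold change -0.51, SE 0.39). Ccna2, cyclin A2, was highest in NrasQ61K replicate 1 at 104 CPM and lowest in Ezh2Y646N replicate 2 at 35.9 CPM. Cdc25c, a phosphatase that activates Cdk1, varied little. It stood at 7.13, 8.43, 8.40 and 7.48 CPM (log2 fold change -0.03, SE 0.35), and the related Cdc25b, with 35.6, 45.7, 59.9 and 39.5 CPM, was likewise higher in the second than in the first Ezh2Y646N library.

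The 7 genes of chromosome structure and condensin summed to 1965, 1384, 2996 and 1288 CPM, and all 7 were highest in NrasQ61K replicate 1. The median ratio of the NrasQ61K libraries was 2.40-fold, and the median log2 fold change between groups was -0.39. Mki67, which coats mitotic chromosomes and is the standard marker of cycling cells (ENSMUSG00000031004, chr7:135689784-135716361), stood at 934, 669.8, 1466 and 593 CPM. The NrasQ61K libraries enclosed both Ezh2Y646N libraries, and the log2 fold change of -0.36 had an SE of 0.43 (adjusted p = 0.807 by edgeR's quasi-likelihood test). Top2a, the DNA topoisomerase that untangles sister chromatids (ENSMUSG00000020914, chr11:98992943-99024189), showed the same order at 421, 245, 635 and 241 CPM, although NrasQ61K replicate 2 and Ezh2Y646N replicate 2 were nearly equal (log2 fold change -0.40, SE 0.46). Smc2 and Smc4, the ATPase core of condensin, reached 178 and 392 CPM in NrasQ61K replicate 1, and 74.1 and 199.9 CPM in NrasQ61K replicate 2. Ncapg, a condensin I subunit, went from 66.9 to 22.7 CPM between the same libraries, while Ncaph, the kleisin of condensin I, was at 29.0, 19.7, 49.2 and 25.8 CPM (log2 fold change -0.62, SE 0.36).

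Ncapd2, a condensin I subunit (ENSMUSG00000038252, chr6:125168007-125191701), departed from its partners. It stood at 125, 130.2, 209.7 and 130.3 CPM, so that 3 libraries were alike and NrasQ61K replicate 1 was high. The groups did not overlap, but the 2 nearest libraries, NrasQ61K replicate 2 with 2717 counts and Ezh2Y646N replicate 2 with 1885, had overlapping 95% Poisson intervals of 125 to 135 and 124 to 136 CPM, which cover counting error only. The log2 fold change of -0.42 had an SE of 0.27 (adjusted p = 0.581 by edgeR's quasi-likelihood test).

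The 9 genes of the spindle checkpoint and of anaphase control summed to 359, 260.5, 459 and 234 CPM, with 7 highest in NrasQ61K replicate 1 and a median log2 fold change of -0.41. Ttk, the kinase Mps1 that starts the checkpoint at unattached kinetochores (ENSMUSG00000038379, chr9:83834689-83872389), was 1 of the other 2. Its level was 52.6, 34.4, 34.1 and 12.6 CPM, from 916 counts in the highest library, and both Ezh2Y646N libraries were at or above the NrasQ61K libraries. The means were 43.5 ± 12.9 and 23.3 ± 15.2 CPM (SD, n = 2). The log2 fold change of 0.90 (SE 0.46, 95% interval -0.15 to 1.96) did not pass the test (adjusted p = 0.445, edgeR's quasi-likelihood test). The nearest libraries, Ezh2Y646N replicate 2 and NrasQ61K replicate 1, differed by less than counting error, with 95% Poisson intervals of 31.4 to 37.6 and 31.2 to 37.1 CPM. Within each group Ttk was, like most of the other genes, 1.53-fold higher in the first Ezh2Y646N library and 2.69-fold higher in the first NrasQ61K library.

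Bub1, a checkpoint kinase that works beside Ttk (ENSMUSG00000027379, chr2:127801122-127831865), varied most within NrasQ61K. It was at 22.1, 11.2, 44.9 and 11.3 CPM, and its second libraries were alike in both groups. It had the lowest fold change of the list with the widest error (log2 -0.75, SE 0.61, adjusted p = 0.680 by edgeR's quasi-likelihood test). Its relative Bub1b, the checkpoint protein BubR1, was at 81.2, 60.0, 122 and 48.6 CPM, and Mad2l1, which inhibits Cdc20, at 28.4, 19.1, 38.1 and 17.4 CPM. Both kept the order in which the NrasQ61K libraries enclosed the Ezh2Y646N libraries.

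Bub3, the WD40 partner of Bub1 and Bub1b (chr7:131560222-131571895), varied little within NrasQ61K, with 45.7, 29.4, 53.7 and 46.6 CPM. The Ezh2Y646N libraries lay below, the nearest pair having overlapping Poisson intervals of 42.6 to 49.0 and 43.7 to 49.6 CPM (log2 fold change -0.42, SE 0.28, adjusted p = 0.600 by edgeR's quasi-likelihood test). Cdc20, the activator of the anaphase-promoting complex that the checkpoint restrains (chr4:118432901-118437352), was at 24.9, 24.7, 41.7 and 27.7 CPM. Its Ezh2Y646N values were almost equal and below both NrasQ61K values, again with overlapping Poisson intervals for the nearest pair, 22.7 to 27.4 and 25.5 to 30.1 CPM (log2 fold change -0.48, SE 0.28, adjusted p = 0.518 by the same test). Ube2c, the ubiquitin-conjugating enzyme of that complex, and Pttg1, securin, reached 49.2 and 17.1 CPM in NrasQ61K replicate 1 and no more than 30.2 and 10.7 CPM elsewhere. Espl1, the protease separase that securin holds inactive, was highest in Ezh2Y646N replicate 1, at 62.6, 46.1, 58.7 and 33.4 CPM (log2 fold change 0.24, SE 0.32).

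**Figure D4:**
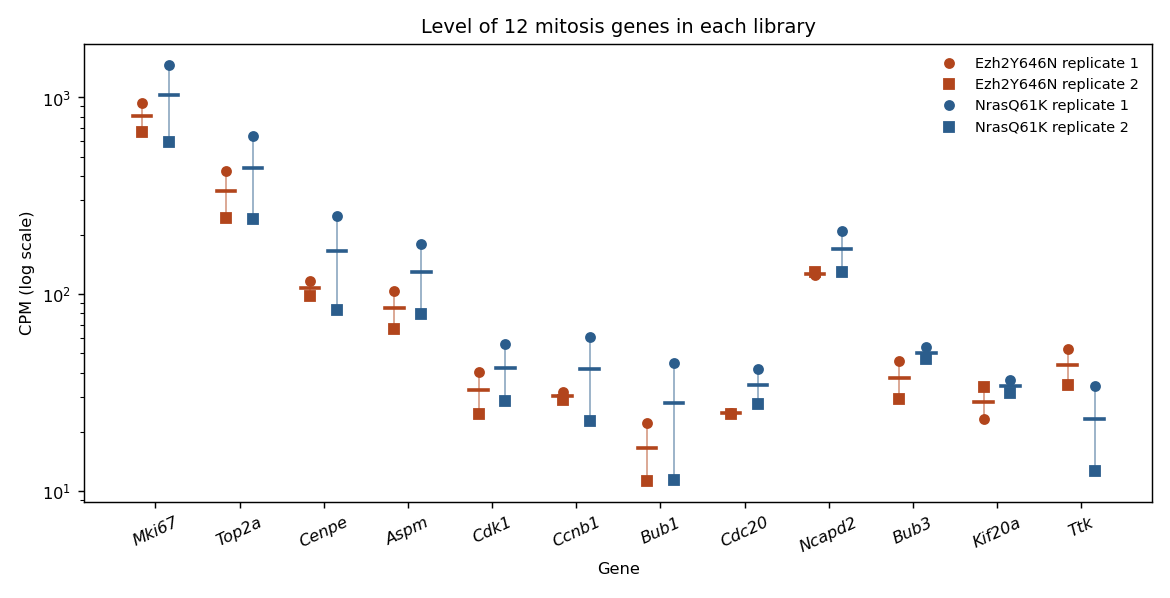
Level of 12 mitosis genes in each library (CPM, log scale; circles replicate 1, squares replicate 2, horizontal bars the mean of each group). The NrasQ61K points enclose the Ezh2Y646N points for Mki67 and Top2a, while for Ttk, Ncapd2, Bub3 and Cdc20 the groups do not overlap, with the nearest points close together.

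The chromosomal passenger complex, which corrects faulty attachments and later guides cleavage, summed to 201, 194, 297 and 149.8 CPM over its 4 genes, with a median log2 fold change of -0.20. Its kinase Aurkb, Aurora B, was at 26.4, 19.1, 34.5 and 17.3 CPM. Birc5, survivin, was at 35.3, 25.8, 52.9 and 26.6 CPM and Cdca8, borealin, at 39.8, 34.3, 57.6 and 28.1 CPM. All 3 were highest in NrasQ61K replicate 1. Incenp, the scaffold of the complex, was also highest there at 152 CPM, but higher in the second Ezh2Y646N library (115 CPM) than in the first (99.3 CPM).

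The 8 centromere and kinetochore genes summed to 555, 469, 863 and 359 CPM, and their median log2 fold change was near 0, at -0.06. Cenpa, the histone variant that marks centromeres (chr5:30666777-30674830), stood at 32.2, 27.5, 64.7 and 28.5 CPM, so 3 libraries were alike and NrasQ61K replicate 1 was higher (log2 fold change -0.64, SE 0.38). Cenpe, a kinesin that brings chromosomes to the spindle equator (chr3:135212537-135273611), was at 116, 98.1, 250.2 and 82.8 CPM, a 3.02-fold range within NrasQ61K (log2 fold change -0.64, SE 0.45). Cenpf, a large kinetochore-associated protein, was at 279, 236, 389 and 166 CPM.

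The Ndc80 complex, which grips the end of the microtubule, had a group difference close to 0 in 3 of its 4 subunits. Ndc80 itself was at 29.9, 25.2, 38.8 and 16.4 CPM (log2 fold change 0.00, SE 0.40), and Spc25 at 31.7, 30.0, 39.6 and 22.8 CPM (log2 -0.02, SE 0.31). Spc24 was at 22.9, 20.6, 25.7 and 16.4 CPM (log2 0.05, SE 0.30) and Nuf2 at 31.6, 27.4, 46.3 and 21.7 CPM. In all 4 subunits the Ezh2Y646N libraries lay between the NrasQ61K libraries. Cenpk, of the constitutive centromere network, was the least abundant gene per length, with 11.95, 4.28, 8.47 and 3.88 CPM. It differed 2.74-fold between the Ezh2Y646N libraries (log2 fold change between groups 0.40, SE 0.58).

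The 6 spindle kinesins summed to 280.5, 189, 448 and 181 CPM, and had the lowest median log2 fold change of the 8 role groups, -0.51. Kif18b, a depolymerase at the tips of astral microtubules (chr11:102905529-102925124), was at 20.1, 11.9, 35.1 and 18.3 CPM (log2 fold change -0.73, SE 0.40, adjusted p = 0.485 by edgeR's quasi-likelihood test). Kif18a, which limits the swing of chromosomes at the equator, was at 18.9, 9.32, 27.0 and 14.3 CPM (log2 -0.55, SE 0.44). Kif2c, the centromeric depolymerase MCAK, was at 26.4, 15.3, 44.0 and 18.0 CPM (log2 -0.57, SE 0.45). These 3 motors were lowest in Ezh2Y646N replicate 2 and not in NrasQ61K replicate 2, as was Kif4, a chromosome-bound kinesin, at 41.4, 29.0, 60.0 and 32.7 CPM. Kif11, the motor Eg5 that pushes the spindle poles apart, was at 100.4, 74.8, 184 and 61.4 CPM, and Kif15, which supports it, at 73.3, 48.2, 98.4 and 36.2 CPM, both with the NrasQ61K libraries outside.

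The 7 spindle assembly genes and associated kinases summed to 392, 302, 617 and 276 CPM, all highest in NrasQ61K replicate 1, with a median log2 fold change of -0.27. Aspm, which focuses the spindle poles (chr1:139454772-139494091), was at 104, 66.6, 181 and 79.5 CPM (log2 fold change -0.61, SE 0.40). Tpx2, which activates Aurora A on spindle microtubules, was at 78.5, 68.2, 144 and 56.2 CPM, and Hmmr, a pole-focusing adaptor, at 62.4, 47.7, 106 and 44.9 CPM. Melk, a kinase of proliferating cells, was nearly level between the groups at 28.9, 20.0, 34.9 and 16.7 CPM (log2 -0.08, SE 0.39). Nusap1, a microtubule bundler, was at 47.5, 40.3, 52.5 and 28.1 CPM (log2 0.13, SE 0.32). Dlgap5 and Ckap2, further spindle proteins, were at 32.7, 30.0, 50.7 and 25.2 CPM and at 37.6, 29.2, 48.0 and 25.4 CPM.

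The 7 cytokinesis genes summed to 473, 392, 674 and 349 CPM, all highest in NrasQ61K replicate 1, with a median log2 fold change of -0.26. Prc1, which bundles the central spindle (chr7:80294450-80316259), stood at 125, 96.3, 146 and 85.5 CPM, with group means of 111 ± 20.6 and 116 ± 42.7 CPM (SD, n = 2; log2 fold change -0.06, SE 0.30). Kif23 and Racgap1, which form the centralspindlin complex, were at 70.7, 64.6, 103 and 46.5 CPM and at 61.3, 41.6, 77.4 and 39.8 CPM. Ect2, the exchange factor they recruit to the equator, was at 42.9, 35.3, 69.8 and 31.2 CPM, and Anln, the ring scaffold anillin, at 83.4, 67.5, 126 and 69.9 CPM. Kif20b, a midbody kinesin, was at 65.7, 52.6, 116 and 44.2 CPM. Kif20a, a kinesin that delivers the passenger complex to the central spindle, was the exception, at 23.1, 33.8, 36.7 and 31.5 CPM, with the first Ezh2Y646N library alone low (log2 fold change -0.26, SE 0.27).

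The direction between the groups depended on which NrasQ61K library was kept. With all 4 libraries 6 genes were above 0, but without NrasQ61K replicate 1 there were 46 (all genes, 50.8%), with a median log2 fold change of 0.38, and without NrasQ61K replicate 2 there was 1, Ttk (all genes, 51.4%), with a median of -0.69. In these fits the lone library of a group is assumed to vary like those of the other group. Without NrasQ61K replicate 2, 7 genes were called lower in Ezh2Y646N by edgeR's quasi-likelihood test (2.68% of all genes were), and 34 had an unadjusted p under 0.05 (20.3% of all genes). The 7 called genes were Cenpe (log2 -1.18, adjusted p = 0.00910), Cenpa (-1.07, 0.0294), Kif11 (-1.03, 0.0318), Tpx2 (-0.93, 0.0387), Kif20b (-0.93, 0.0475), Aspm (-1.04, 0.0483) and Ccnb1 (-0.95, 0.0483). Without NrasQ61K replicate 1 the call was Ttk, higher in Ezh2Y646N (log2 1.79, adjusted p = 0.0176 by the same test; 1.47% of all genes were called higher). With Ttk, 6 genes had an unadjusted p under 0.05 there (all genes, 11.8%), the others being Cenpf, Nusap1, Kif15, Espl1 and Ndc80, all higher. Leaving out an Ezh2Y646N library gave no call (all genes, 0.63% without replicate 1 and 1.47% without replicate 2). At an unadjusted p under 0.05 there were 2 genes without replicate 1 (all genes, 10.1%) and 0 without replicate 2 (all genes, 10.2%), and the medians were -0.52 and -0.14. Over these 4 fits 45 genes changed sign, 8 stayed below 0 (Bub3, Cdc20, Kif18a, Kif18b, Kif20a, Ncapd2, Ncaph and Pttg1) and Ttk stayed above. The share of all genes that changed sign is not given here, so the 45 cannot be read as particular to this list.

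**Figure D5:**
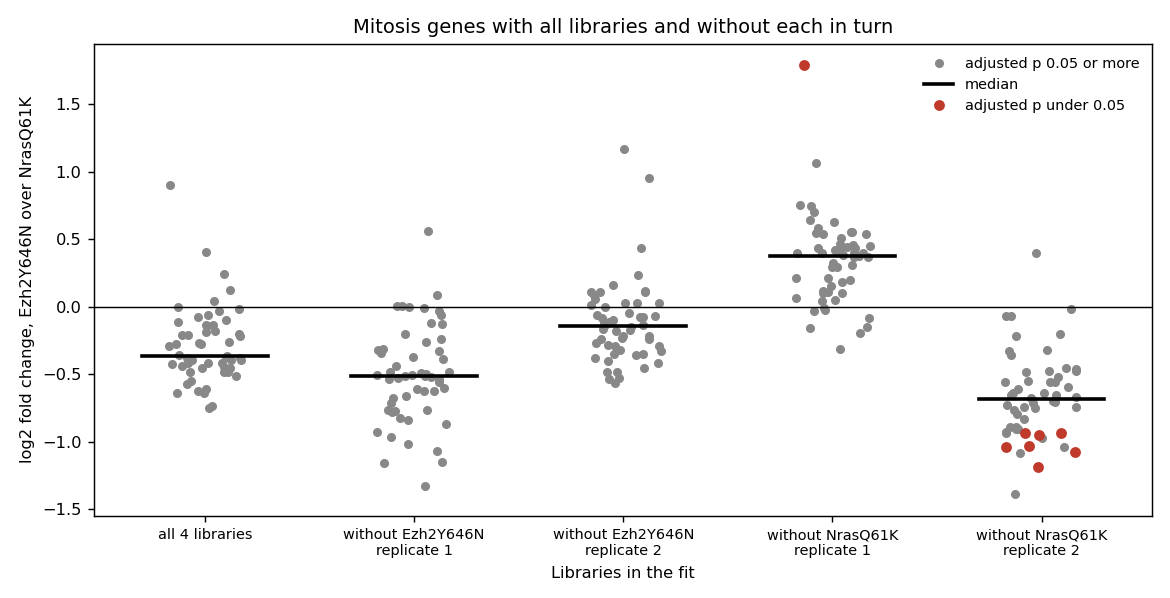
Log2 fold changes of the 54 genes, Ezh2Y646N over NrasQ61K, with all 4 libraries and without each library in turn (points; bars are medians, red points have an adjusted p under 0.05 by edgeR's quasi-likelihood test). The median moves from -0.36 to 0.38 without NrasQ61K replicate 1 and to -0.69 without NrasQ61K replicate 2.

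Ttk was the 1 gene of the list whose call also changed in other fits with all libraries. It was called higher without the filter on low counts (adjusted p = 0.0396, edgeR's quasi-likelihood test) and with the replicate number as a block (log2 1.03, adjusted p = 0.00539). The labels do not pair the libraries by that number. The corresponding shares of all genes were 6.95% and 9.37% called, with 3.66% and 4.98% called higher. When libraries were instead scaled to equal summed counts of the 54 genes, a setting chosen after seeing the data that centres the list on itself, the log2 value of Ttk was 1.25 and did not pass the test (unadjusted p = 0.110). Under that scaling 0 of the 54 were called (all genes, 0.358%), the median was -0.04 and 24 genes were above 0 (all genes, 59.4%).

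Genes of the same pathway outside the list were mostly highest in the same library. Of 94 other mitosis genes, 0 were called by edgeR's quasi-likelihood test (all genes, 1.77%) and 2 had an unadjusted p under 0.05 (all genes, 14.3%). DESeq2 and limma voom called none either (all genes, 6.45% and 1.5%). A total of 75 were below 0 (all genes, 54%) and 19 above, with a median log2 fold change of -0.19. In NrasQ61K replicate 1, 76 (80.9%) were highest (all genes, 32.7%). Plk1, the polo-like kinase of mitotic entry, was at 25.9, 22.5, 39.1 and 17.6 CPM and Aurka, Aurora A, at 14.2, 16.4, 26.5 and 10.6 CPM. The smallest p belonged to Mad2l2, a HORMA-domain adaptor also used in DNA repair (11.1, 8.98, 4.74 and 5.61 CPM, log2 fold change 0.96), to Psrc1, a spindle protein (24.3, 28.0, 58.5 and 33.2 CPM, log2 -0.81), and to Kif24, a centriolar kinesin (log2 -0.72). None of these passed the adjusted test. Their groups did not overlap (all genes, 44.2%), but picking genes by small p favours such genes.

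The 19 regulators of G2/M transcription had 0 calls by edgeR (all genes, 1.77%) and 0 with an unadjusted p under 0.05 (all genes, 14.3%). Of the 19, 5 were above 0 and 14 below (all genes, 54% below), and 15 were highest in NrasQ61K replicate 1 (all genes, 32.7%). Foxm1, which drives the mitotic genes, was at 43.0, 44.3, 80.6 and 35.3 CPM (log2 fold change -0.41, SE 0.37). Mybl2, which encodes B-Myb, was at 12.1, 8.56, 23.4 and 10.5 CPM (log2 -0.71, SE 0.43). For both, NrasQ61K replicate 1 stood apart from the other 3 libraries. E2f2 and E2f5, of the E2F family that pairs with the pocket proteins, were the others with the smallest p in this list, at log2 fold changes of -0.82 and -0.61.

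The 53 genes of DNA replication and S phase, which act just before mitosis, were compared beside them. They had 0 calls (all genes, 1.77%) and 1 unadjusted p under 0.05 (all genes, 14.3%) by edgeR's quasi-likelihood test. The log2 fold change was above 0 for 18 and below for 35 (all genes, 54% below), with a median of -0.03. Of the 53 genes, 35 (66.0%) were highest in NrasQ61K replicate 1 (all genes, 32.7%). The first library exceeded the second by a median of 1.79-fold in NrasQ61K and 1.58-fold in Ezh2Y646N, against 2.06-fold and 1.31-fold for the mitosis genes. The summed CPM of the 54 mitosis genes over that of the S phase genes was 1.68, 2.02, 2.45 and 1.86, with means of 1.85 ± 0.244 and 2.16 ± 0.423 (SD, n = 2), and a two-sided exact permutation test gave p = 0.667. Gins2, a subunit of the replicative helicase, had the smallest p of that list (28.2, 16.7, 14.1 and 11.7 CPM, log2 0.81). It was followed by Ticrr, which acts in origin firing (log2 -0.74), and Mcm10, a replication initiation factor (log2 -0.78).

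The 17 G1 cyclins and Cdk inhibitors did not share the order: 5 were highest in NrasQ61K replicate 1 (29.4%; all genes, 32.7%). None was called by edgeR (all genes, 1.77%), while 3 had an unadjusted p under 0.05 (all genes, 14.3%). Ccnd2, cyclin D2, was at 180.0, 146, 675 and 353 CPM (log2 fold change -1.66, SE 0.34, adjusted p = 0.0616 by edgeR's quasi-likelihood test). Cdk6, a G1 kinase, was at 165, 139, 94.1 and 80.4 CPM (log2 0.80), and Cdkn1a, the inhibitor p21, at 195, 158, 111 and 113 CPM (log2 0.65). These 3 were named for the smallest p of their list. Their groups did not overlap (all genes, 44.2%), but picking by small p favours such genes. DESeq2 called Ccnd2 and Cdk6 (all genes, 6.45%), to which the same limit applies.

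Some markers of other skin cells were also highest in NrasQ61K replicate 1, without sharing the rest of the order. All 13 measured genes of hair matrix and shaft were highest in NrasQ61K replicate 1, and their sum was 749 and 413 CPM in Ezh2Y646N and 3714 and 1787 CPM in NrasQ61K, with 4 called lower in Ezh2Y646N (all genes, 0.673%). Of 10 fibroblast genes, 8 were highest in that library, with sums of 916 and 2129 against 4109 and 2407 CPM. Of 10 endothelial genes 6 were highest there, with sums of 171 and 112 against 256 and 244 CPM. NrasQ61K replicate 2 was the lowest library for 1 of the 13 hair, 1 of the 10 fibroblast and 0 of the 10 endothelial genes, against 34 of the 54 mitosis genes. By contrast, NrasQ61K replicate 1 was the highest library for none of the 11 suprabasal, 10 basal and 10 Schwann cell markers (all genes, 32.7%). It was the highest for 2 of 12 melanocyte and 1 of 8 outer sheath and bulge genes. The same held for 1 of 12 macrophage and dendritic cell and 2 of 7 pericyte and muscle genes. Of the other lists, 5 suprabasal and 1 Schwann cell gene were called higher in Ezh2Y646N (all genes, 1.1%), and 3 outer sheath and bulge, 1 fibroblast and 1 pericyte and muscle gene were called lower. Lymphocyte and mast cell markers summed to at most 39.7 CPM, with Cpa3, Cd79a and Cma1 among those at 0 in at least 1 library, and erythroid markers to at most 11.3 CPM. The part of these cells in the levels of the mitosis genes was not tested.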

How the data were processed

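RNA was sequenced from 4 libraries of sorted mouse skin cells, prepared with a stranded kit for very small amounts of total RNA, per the labels' protocols. The deposited values are raw read counts per Ensembl gene, made by the authors with no normalization. Tools listed in the submitters' processing notes, without roles, are STAR 2.5.4b, featureCounts, edgeR, Trimmomatic and bcl2fastq 2.19, with the mouse build GRCm38. The annotation release is not given in the sources used.

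Of 22524 identifiers, 22291 were named through GENCODE M21. The test was edgeR 4.0.16 (R 4.3.3). Its filterByExpr step used the default minimum counts of 10, which not every library had to meet, and 15 in all. TMM scaling followed, then a robust quasi-likelihood fit with group as its term and 2 residual degrees of freedom. The biological coefficient of variation was 27.9%. Benjamini-Hochberg adjustment ran over the 14265 genes that passed the filter, and calls were made at an adjusted p under 0.05. The F statistic and the fold change gave the standard error (SE). Log2 CPM used a prior count of 2. Every value column was mapped to a library.

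The 54 genes, the 4 pathway lists and the 12 marker lists were chosen with earlier results of these data known. Values in each library were required for the 12 genes with the smallest p, the 6 with the largest p, Mki67, Top2a, Cdk1 and Ccnb1. Plk1, Aurka, Foxm1, Mybl2, Ezh2 and the 3 genes with the smallest p in each pathway list were to be named. For Kif24, E2f2, E2f5, Ticrr and Mcm10 the fold change is given without the values in each library. Other genes were added after their values were seen, among them Bub1, Espl1 and Kif20a, as was the promoter of Ttk. Markers Flg and Krt85 had no row. The values of 1 marker gene are not reported here. Alternatives were DESeq2 1.42.0 on the same genes, limma 3.58.1 voom, DESeq2-type (RLE) size factors, no TMM scaling, no count filter, a fit without robust estimates, the replicate number as a block, mitochondrial, haemoglobin and keratin genes left out, each library left out in turn and, chosen after seeing the data, scaling by the summed counts of the 54 genes. The fit was tested on simulated data.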

Additional observations from a re-analysis of the deposited data

How the results depend on the processing

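The number of all genes called, 253, was 920 with DESeq2, 1302 without the count filter, 1337 with the replicate number as a block, and 92 to 1123 leaving out each library in turn; with the other settings it stayed within 1.5 times of 253, apart from 51 with scaling by the summed counts of the 54 genes. The number of the 54 genes called was 1 without the filter, 1 with the replicate block and 0 to 7 leaving out each library. It was 0 to 5 of the other mitosis genes and 0 to 1 of the S phase genes. The labels share only a number between groups. Over all genes tested, the deviations of same-numbered libraries from their group means correlated at 0.11. The median log2 fold change ran from -0.69 to 0.38 leaving out each library. Leaving out TMM scaling moved the median of all genes from -0.04 to -0.16 and that of the 54 genes from -0.36 to -0.49. The median replicate ratios kept their direction, and NrasQ61K replicate 1 stayed highest for 50 to 52 genes, with RLE factors, without TMM, without the filter and with mitochondrial, haemoglobin and keratin genes left out. Scaling by the 54 genes equalises their sums by construction and was not applied to these values. Among those of the 54 genes whose log2 fold change is given in the report, signs reversed with all libraries for Prc1 (0.18 with scaling by the 54 genes), Melk (0.032 with voom, 0.21 with that scaling), Cdc25c (0.14 with that scaling), Spc24 (-0.078 without TMM), Ndc80 (-0.13 without TMM, -0.0051 without the filter), Nusap1 (-0.00074 without TMM) and Spc25 (0.0059 with RLE factors, 0.0058 with DESeq2, 0.055 with voom, 0.033 with the block and 0.25 with that scaling). The cause was not tested. Leaving out each library in turn, the log2 fold change of 45 of the 54 genes changed sign, with no share of all genes given beside it. Among the genes named with a fold change, inside or outside the 54, it crossed 0 for Cenpa (-1.07 to 0.067), Aspm (-1.04 to 0.10), Cenpe (-1.18 to 0.37), Ccnb2 (-0.93 to 0.15), Kif2c (-1.03 to 0.21), Prc1 (-0.35 to 0.37), Melk (-0.47 to 0.55), Spc24 (-0.20 to 0.40), Cdc25c (-0.16 to 0.086), Spc25 (-0.32 to 0.43), Ndc80 (-0.45 to 0.75), Mki67 (-0.83 to 0.43), Top2a (-0.89 to 0.46), Cdk1 (-0.78 to 0.19), Ccnb1 (-0.95 to 0.42), Bub1 (-1.39 to 0.56), Espl1 (-0.070 to 0.70), Cenpk (-0.52 to 1.06), Nusap1 (-0.22 to 0.64), Tpx2 (-0.93 to 0.38), Kif11 (-1.03 to 0.51), Kif20b (-0.93 to 0.42), Ezh2 (-0.55 to 0.59), Plk1 (-0.65 to 0.46), Aurka (-0.75 to 0.52), Foxm1 (-0.84 to 0.31) and Ticrr (-1.19 to 0.011). The lowest count of any of the 54 genes was 62.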
